A study of Danio rerio with 6 samples.

Results

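Galectins are proteins that bind β-galactoside sugars on glycoproteins and glycolipids through a conserved carbohydrate recognition domain. They are made without a signal peptide, act both inside cells and outside them, and are known in vertebrates from inflammation, cell adhesion and the sensing of damaged lysosomes. The family falls into prototype galectins with a single recognition domain, the chimera-type galectin-3 with an added N-terminal tail, and tandem-repeat galectins in which a pair of domains is joined by a linker. Zebrafish carry several copies of each kind, and the genes measured here are *lgals3b* and *lgals3a* of the galectin-3 kind, *lgals9l1* and *lgals9l3* of the galectin-9 kind, and *lgals1l1*, *lgals2a* and *lgals2b* of the prototype kind.

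The family was chosen on measured values, because *lgals3b* and *lgals9l1* were among the genes that differed most between the genotypes in these same arrays. The genotype differences of its members are therefore given as a description and not as a test. Of 8 galectin genes listed, 7 had a row of the array table whose platform annotation gives exactly 1 symbol, out of 19260 genes with such a row. For *lgals8a* no row with exactly 1 symbol was found, and it was not analysed here. Where a gene had several rows, the row with the highest mean was used.

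RNA of whole zebrafish embryos at 5 dpf (days post-fertilization) was measured on 6 Affymetrix arrays, 3 of *tdp1-/-* embryos and 3 of *tdp1WT* embryos. All 6 came from embryos kept for 16 hours in 500 nM CPT (camptothecin), a poison that traps topoisomerase 1 on DNA, so no untreated embryos enter any value below. Tdp1 is an enzyme that removes trapped topoisomerase 1 from DNA ends. The *tdp1-/-* fish descend from CRISPR-Cas9 founders and carry frameshift deletions in an early exon in every cell of the body, and the allele combination on each array is not stated in the sources used here. The *tdp1* row measured 5.18, 5.17 and 5.24 in *tdp1-/-* replicates 1, 2 and 3, against 5.59, 5.34 and 5.85 in *tdp1WT* replicates 1, 2 and 3 (log2 values), and every *tdp1-/-* array lay below every *tdp1WT* array. Array medians lay between 4.66 and 4.87, and arrays correlated with r from 0.969 to 0.988 over the 75212 rows. All 19 measured skeletal muscle markers, 19 of 22 epidermis markers and 12 of 15 intestine markers lay above the upper quartile of row means. In RNA of whole embryos fewer cells of a type and less RNA per cell cannot be told apart.

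The galectin-3 gene *lgals3b* had the highest fold change of the family. Galectin-3 is made by macrophages and epithelia in mammals and gathers on broken lysosomes there. Its row, cluster 13050227, measured 9.51, 9.41 and 9.29 in *tdp1-/-* replicates 1, 2 and 3, and 7.63, 8.46 and 7.53 in *tdp1WT* replicates 1, 2 and 3 (log2 values after RMA, the authors' background correction and normalization). Every *tdp1-/-* array lay above every *tdp1WT* array, and *tdp1WT* replicate 2 stood above the other 2 arrays of its genotype. The *tdp1-/-* arrays were close together, within 0.22 of each other, while the *tdp1WT* arrays spanned 0.94. The means were 9.40 ± 0.11 in *tdp1-/-* embryos and 7.88 ± 0.51 in *tdp1WT* embryos (SD, n = 3 arrays each). This is a log2 fold change of 1.53 with a standard error of 0.26, or 2.88-fold higher in *tdp1-/-* embryos (95% confidence interval 0.93 to 2.12 on the log2 scale, limma). In same-numbered pairs of arrays the log2 difference was 1.87, 0.94 and 1.76, the smallest in the pair that holds *tdp1WT* replicate 2. Without that array the log2 fold change was 1.82. Over the 19260 genes, taking for each the row with the highest mean, no log2 fold change was further from 0. Over all 75212 rows, which include rows without a single symbol, the largest was 3.04 in absolute value, so *lgals3b* was not the furthest on the array.

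Its paralog *lgals3a*, on another chromosome, had similar values in both genotypes. The brighter of its 2 rows measured 7.67, 7.84 and 7.78 in *tdp1-/-* replicates 1, 2 and 3, and 7.60, 7.59 and 7.74 in *tdp1WT* replicates 1, 2 and 3. The genotypes overlapped only through *tdp1WT* replicate 3, and all 3 same-numbered pairs were higher in *tdp1-/-* by 0.03 to 0.25. Its log2 fold change was 0.12 (95% interval -0.20 to 0.43). The dimmer row, cluster 12999005, gave 5.25, 5.16 and 5.50 in *tdp1-/-* replicates 1, 2 and 3, and 5.36, 5.51 and 5.43 in *tdp1WT* replicates 1, 2 and 3. Its log2 fold change was -0.13, of the opposite sign (95% interval -0.48 to 0.22). The difference between the paralogs was not tested, and *lgals3b* was taken up for its value in this same contrast.

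**Figure D1:**
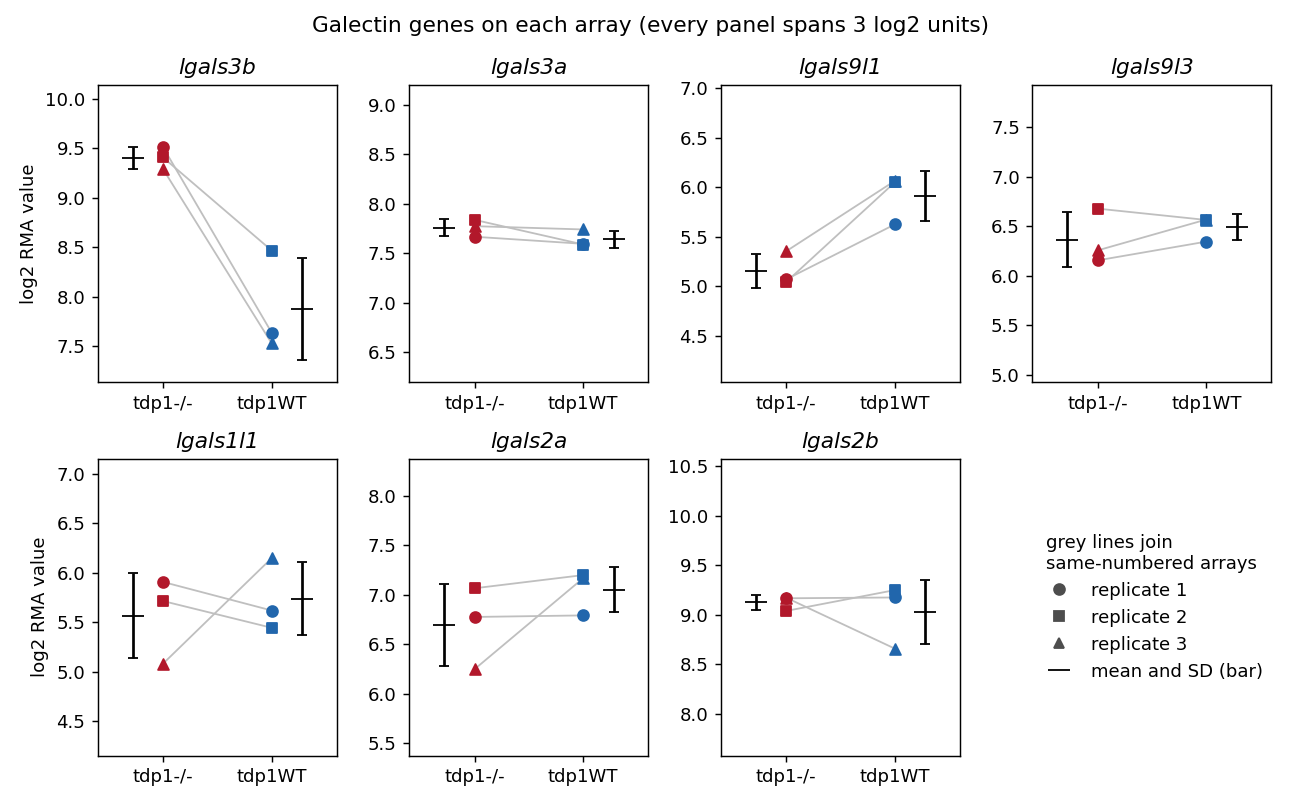
Log2 RMA value of 7 galectin genes on each array, 3 *tdp1-/-* arrays on the left of each panel and 3 *tdp1WT* arrays on the right, with marker shape for the replicate number, grey lines between same-numbered arrays and the mean with SD beside the points. The genotypes are apart in *lgals3b*, where *tdp1-/-* averages 9.40 and *tdp1WT* 7.88, and in *lgals9l1*, where *tdp1-/-* averages 5.16 and *tdp1WT* 5.91, and overlap in the other 5.

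The tandem-repeat gene *lgals9l1* lay in the other direction. Galectin-9 is best known in mammals as an extracellular signal to immune cells. Cluster 13026771 measured 5.07, 5.04 and 5.35 in *tdp1-/-* replicates 1, 2 and 3, against 5.63, 6.05 and 6.07 in *tdp1WT* replicates 1, 2 and 3. The groups did not overlap, with 0.27 between the highest *tdp1-/-* array and the lowest *tdp1WT* array. Means were 5.16 ± 0.17 in *tdp1-/-* embryos and 5.91 ± 0.25 in *tdp1WT* embryos (log2 values, SD, n = 3 arrays each). The gene was thus 1.69-fold lower in *tdp1-/-* embryos, a log2 fold change of -0.76 with a standard error of 0.18 (95% interval -1.18 to -0.34). The pairs gave log2 differences of -0.56, -1.01 and -0.71.

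Its near neighbour and paralog *lgals9l3* measured 6.15, 6.68 and 6.25 in *tdp1-/-* replicates 1, 2 and 3, and 6.34, 6.56 and 6.57 in *tdp1WT* replicates 1, 2 and 3. The groups overlapped, with *tdp1-/-* replicate 2 the highest of all 6 arrays. For *lgals9l3* the log2 fold change came to -0.13 (95% interval -0.55 to 0.29), and 1 of 3 pairs was higher in *tdp1-/-*. Without *tdp1-/-* replicate 2 it was -0.29 and without *tdp1-/-* replicate 1 it was -0.025, not called in either case. Both genes belong to a run of galectin-9-like genes on chromosome 15, and whether probes of 1 of them also bind transcripts of another was not tested.

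The prototype galectins *lgals1l1*, *lgals2a* and *lgals2b* are relatives of mammalian galectin-1 and galectin-2. The gene *lgals1l1* measured 5.91, 5.72 and 5.08 in *tdp1-/-* replicates 1, 2 and 3, against 5.62, 5.44 and 6.15 in *tdp1WT* replicates 1, 2 and 3. Replicate 3 held both the lowest *tdp1-/-* value and the highest *tdp1WT* value, and the groups overlapped. The pairs differed by 0.29 and 0.27 in replicates 1 and 2, and by -1.07 in replicate 3. Over all arrays the log2 fold change of *lgals1l1* was -0.17 (95% interval -0.80 to 0.46), and it was 0.074 without *tdp1-/-* replicate 3.

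The gene beside it on chromosome 3, *lgals2a*, had its lowest value on the same array. It measured 6.77, 7.06 and 6.25 in *tdp1-/-* replicates 1, 2 and 3, and 6.79, 7.20 and 7.17 in *tdp1WT* replicates 1, 2 and 3. All 3 pairs were lower in *tdp1-/-*, with log2 differences of -0.016, -0.13 and -0.92, so that replicate 3 carried most of the difference. For *lgals2a* this gave a log2 fold change of -0.36 (95% interval -0.91 to 0.20). It was -0.13 without *tdp1-/-* replicate 3 and -0.54 without *tdp1-/-* replicate 2, and not called in either case. None of the 10 nearest measured genes, *lgals1l1* included, was called by the rule given below.

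The third prototype gene, *lgals2b* on chromosome 6, measured 9.16, 9.04 and 9.17 in *tdp1-/-* replicates 1, 2 and 3, and 9.17, 9.25 and 8.66 in *tdp1WT* replicates 1, 2 and 3. The *tdp1-/-* arrays lay inside the range of the *tdp1WT* arrays, and *tdp1WT* replicate 3 stood below all others. This gave a log2 fold change of 0.10 (95% interval -0.34 to 0.54), and -0.086 without *tdp1WT* replicate 3. A dimmer row of the same gene gave 0.03.

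**Figure D2:**
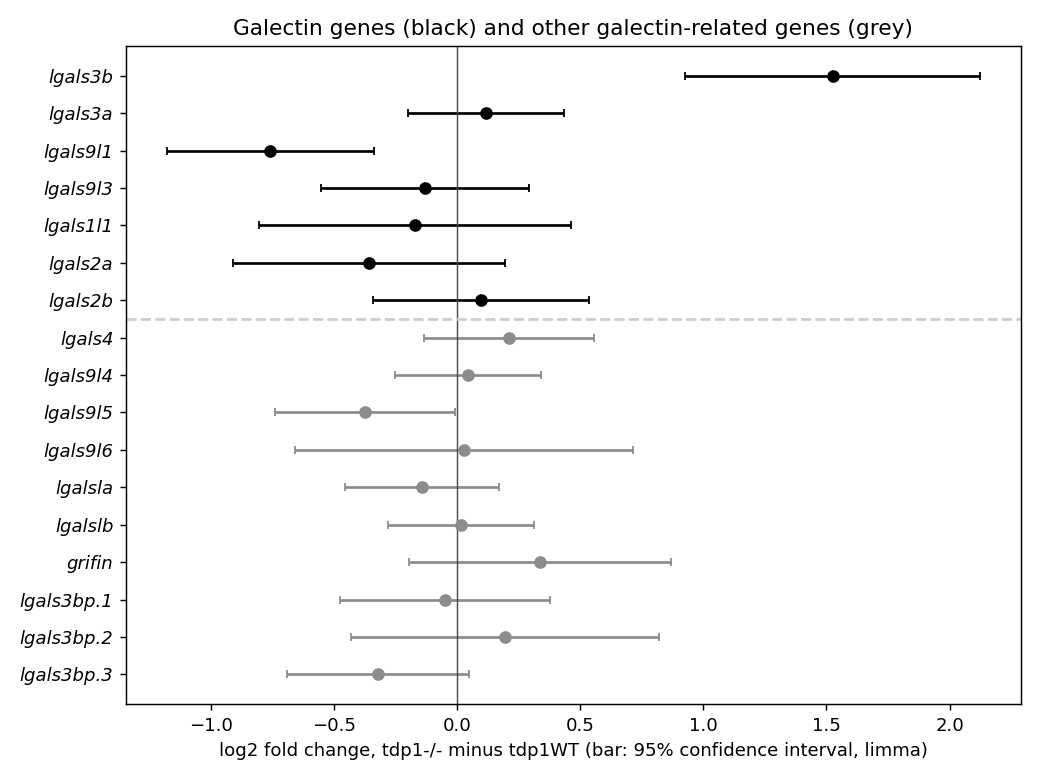
Log2 fold change of *tdp1-/-* minus *tdp1WT* with its 95% confidence interval from limma, for 7 galectin genes in black above and 10 other galectin-related genes in grey below. Only *lgals3b* (1.53), *lgals9l1* (-0.76) and *lgals9l5* (-0.37) have an interval that leaves out 0.

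A row was called when the moderated limma test gave an unadjusted p under 0.05 and the fold change passed the study's threshold of 1.2. By this rule 1 of 7 galectin genes was higher (*lgals3b*), 1 was lower (*lgals9l1*) and 5 were not called. Of all 75212 rows 3.57% were called, and of the 20806 rows with 1 symbol 1.93% were called, 0.904% higher and 1.02% lower. These are 401 rows, and 676 were called when the rows with 1 symbol were fitted alone. Since the same contrast brought the family up, nothing is read from the members' count. The groups did not overlap in 2 of the 7 genes, and in 7.62% of rows with 1 symbol. After Benjamini-Hochberg adjustment no row of the table was under 0.05 in limma, where 2688 were under 0.05 unadjusted, and the lowest adjusted p of a galectin gene was 0.913, for *lgals3b*. The median log2 fold change was -0.13 over the 7 galectin genes and -0.005 over all genes, with 3 galectin genes above 0 and 4 below. When the fit held the replicate number as a block, *lgals3b* and *lgals9l1* were again the 2 called galectin genes, beside 4.09% of rows with 1 symbol.

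The gene order along the chromosomes was read from the RefSeq table of assembly GRCz12tu, which may not be the build behind the array. The gene *lgals3b* lies on chromosome 17, the chromosome of the mutated *tdp1*, with 97 protein-coding genes between them. Of these 97, 78 were measured, and 1 was called higher and 3 lower. That is 5.13% of them, against 1.93% of all rows with 1 symbol. Their median log2 fold change was 0.04, and the one furthest from 0 was -0.78, of *fhl5*. The 5 nearest measured genes on either side of *lgals3b*, chosen by position after its values were known, had log2 fold changes from -0.04 to 0.16 and none was called. The nearest measured on either side were *fbxo34*, an F-box gene, at -0.0055 and *dact1*, a modulator of Wnt signalling, at 0.04, and the ends of the range were the receptor tyrosine kinase gene *tyro3* at 0.16 and *arid4a* at -0.04. Since *lgals3b* had the log2 fold change furthest from 0 over all 19260 genes, it was also first among the 676 measured on the chromosome. That rank was thus fixed in advance and adds nothing about the chromosome. Whether the shared chromosome has a part in the *lgals3b* values was not tested.

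The gene *lgals9l1* lies on chromosome 15 amid *lgals9l6*, *lgals9l5*, *lgals9l4* and *lgals9l3*. Its 10 nearest measured genes, these 4 included, had log2 fold changes from -0.37 to 0.12, and only *lgals9l5* was called. Beside this, 1.93% of rows with 1 symbol were called, and the same *lgals9l5* row is counted again among the galectin-related genes below. The nearest outside the galectins were *akap1b* on one side, at 0.03, and *wsb1* on the other, at -0.04. The rows of *lgals9l4*, *lgals9l5* and *lgals9l6* were dim, with means above those of 19.9%, 10.1% and 23.3% of all rows. The deposited values do not say whether such rows lie above background.

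**Figure D3:**
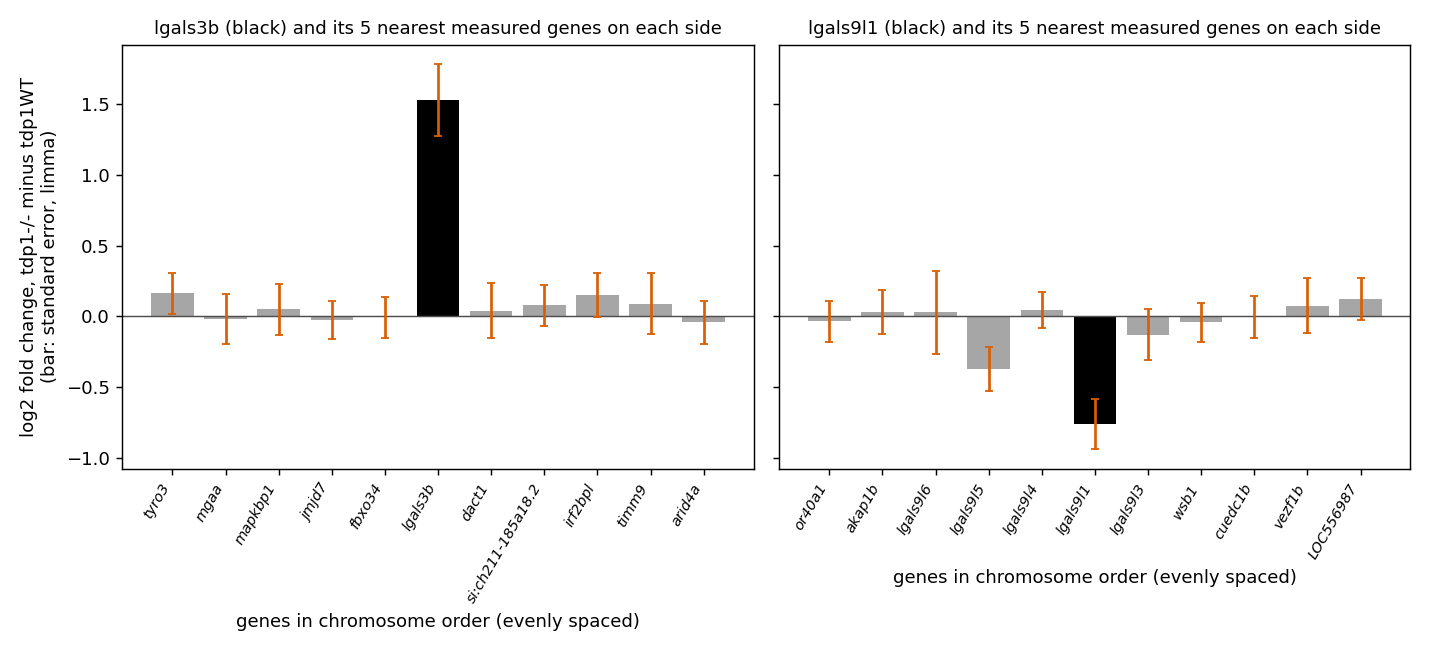
Log2 fold change of *tdp1-/-* minus *tdp1WT* with its standard error for *lgals3b* and *lgals9l1* (black) and the 5 nearest measured genes on each side (grey), in chromosome order and evenly spaced. The bar of *lgals3b* reaches 1.53 among neighbours between -0.04 and 0.16, and that of *lgals9l1* reaches -0.76 among neighbours between -0.37 and 0.12.

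A further 10 genes of the annotation have a galectin-related name and were not among those listed. Of these *lgals9l5* was called lower and 9 were not called, beside 1.93% of rows with 1 symbol called in either direction. The groups did not overlap in 3 of the 10, and in 7.62% of rows with 1 symbol. The row of *lgals9l5* measured 2.07, 1.77 and 1.83 in *tdp1-/-* replicates 1, 2 and 3. It measured 2.19, 2.44 and 2.16 in *tdp1WT* replicates 1, 2 and 3, without overlap but dim. Its log2 fold change was -0.37 (95% interval -0.74 to -0.01, adjusted p = 1 from limma), and with the replicate block its interval reached 0.02 and the call was lost. It was not called after a further quantile normalization or median centring, nor when any array other than *tdp1-/-* replicate 1 was left out. The tandem-repeat gene *lgals4*, whose mammalian counterpart is made in the gut epithelium, measured 3.47, 3.50 and 3.47 in *tdp1-/-* replicates 1, 2 and 3, and 3.10, 3.47 and 3.23 in *tdp1WT* replicates 1, 2 and 3. The gap between the groups was 0.0014 on the log2 scale, and the log2 fold change of 0.21 was not called. This row was rather dim as well, with a mean above those of 30.1% of all rows.

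The lens gene *grifin* encodes a galectin-like protein of lens fibre cells. It measured 6.21, 6.64 and 6.60 in *tdp1-/-* replicates 1, 2 and 3, and 5.71, 6.40 and 6.32 in *tdp1WT* replicates 1, 2 and 3. The groups overlapped, while all 3 pairs were higher in *tdp1-/-*, by 0.50, 0.24 and 0.28. Its log2 fold change was 0.34, not called without the block (95% interval -0.19 to 0.87) and called with it (0.02 to 0.65, adjusted p = 0.77 from limma). Beside it, 14 of 17 lens markers, *grifin* included, had a log2 fold change above 0, with a median of 0.10. None of the 17 was called, beside 1.93% of rows with 1 symbol. The summed linear signal of the list was 13260 to 14201 in *tdp1-/-* and 11899 to 13810 in *tdp1WT* arrays. Whether the lens share of the embryo RNA has a part in the *grifin* value was not tested.

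Of the 3 genes named for the secreted galectin-3-binding protein, *lgals3bp.3* measured 3.30, 3.01 and 3.23 in *tdp1-/-* replicates 1, 2 and 3, and 3.68, 3.34 and 3.47 in *tdp1WT* replicates 1, 2 and 3. The groups did not overlap, with a gap of 0.046 on the log2 scale, in a rather dim row with a mean above those of 29.7% of all rows. Its log2 fold change of -0.32 was called with the replicate block (95% interval -0.61 to -0.02) and not without it. The genes *lgals3bp.1* and *lgals3bp.2* had log2 fold changes of -0.05 and 0.19, and the galectin-like genes *lgalsla* and *lgalslb* -0.14 and 0.02, none called in either fit. The median over the 10 genes was 0.02.

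Galectins act through the glycans of integrins, laminins and other glycoproteins, which Mgat enzymes branch. Of 28 measured genes for such ligands and for glycan branching, none was called, 21 had a log2 fold change below 0 and the median was -0.08, beside -0.005 over all genes. The integrin gene *itga3a* had -0.27. A list of 26 measured genes covered the response to damaged lysosomes, where galectins mark broken membranes in mammalian cells, and lysosomal proteases themselves. Of these 1 was called, beside 1.93% of rows with 1 symbol. This was the lysosomal protease gene *ctsk*, at 7.04 in *tdp1-/-* and 7.45 in *tdp1WT* embryos, 1.32-fold lower. The autophagy gene *uvrag* had a log2 fold change of -0.37 and was called with the block alone. The median of this list was -0.01.

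Markers of cell types were set beside the galectins. Against their counts of called genes stand 1.93% of rows with 1 symbol called in either direction. Of 22 macrophage and microglia markers none was called, 17 had a log2 fold change below 0 and the median was -0.14. Their summed linear signal was 3536 to 3804 in *tdp1-/-* and 3763 to 4439 in *tdp1WT* arrays. A linear sum is carried by its brightest rows, here *apoeb* and *lgmn*. Whether each gene of the list, these included, is particular to macrophages and microglia was not tested. Only 3 of the 22 markers lay above the upper quartile of row means. The antigen presentation gene *cd74a* had -0.35, called with the block alone, and *spi1a*, a myeloid transcription factor gene, -0.23. Of 13 genes listed for neutrophils none was called, 6 had a log2 fold change above 0 and 7 below, and the median was -0.04. The 2 with the smallest p lay on opposite sides, the protease gene *mmp13a* at 0.36 and *csf3r* at -0.24. The median of the list is the value of *cpa5*, a very bright row with a mean above those of 99.9% of all rows. Whether each gene of this list is particular to neutrophils was not tested. The part of these cells in the *lgals3b* and *lgals9l1* values was not tested.

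Of 22 measured epidermis markers, 4 were called lower and none higher, with a median of -0.17. Beside this stand 1.02% of rows with 1 symbol called lower and a median of -0.005 over all genes. The called genes were *icn2* with a log2 fold change of -0.63, *evpla*, an envoplakin gene of cell junctions, with -0.60, and the keratin genes *krt5* with -0.50 and *krt91* with -0.45. With the block *ppl* and *pkp3a* were called lower as well. The summed linear signal of the list was 13438 to 15388 in *tdp1-/-* arrays and 15592 to 16930 in *tdp1WT* arrays, without overlap. Its brightest rows, which weigh most in such a sum, were *krt4*, *cyt1l* and *anxa1a*, with log2 fold changes of -0.14, -0.02 and -0.07, none called. The called *krt5*, also a bright row, averaged 10.08 in *tdp1-/-* and 10.58 in *tdp1WT* embryos (log2 values). The sum is thus not apart from the called genes. The sum lay on the same side as *lgals9l1* and on the opposite side to *lgals3b*, and the part of the epidermis in either was not tested.

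Among 12 markers of ionocytes and mucus cells, 1 was called lower, beside 1.02% of rows with 1 symbol. This was *agr2*, which mucus cells need to fold mucins, at -0.34. The mucin gene *muc5.1* had -0.29, not called. No marker was called among 15 of the intestine (median -0.06), 13 of the notochord (median -0.15) and 19 of skeletal muscle (median -0.05). Beside this, 1.93% of rows with 1 symbol were called. Log2 fold changes were above 0 for 5 intestine, 5 notochord and 8 muscle markers. Those with the smallest p in these lists were *pyya* at -0.31, *col8a1a* at -0.30 and *casq1a* at -0.31. The pairs of *pyya* gave -0.084, -0.071 and -0.77, so that replicate 3 carried most of its difference.

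**Figure D4:**
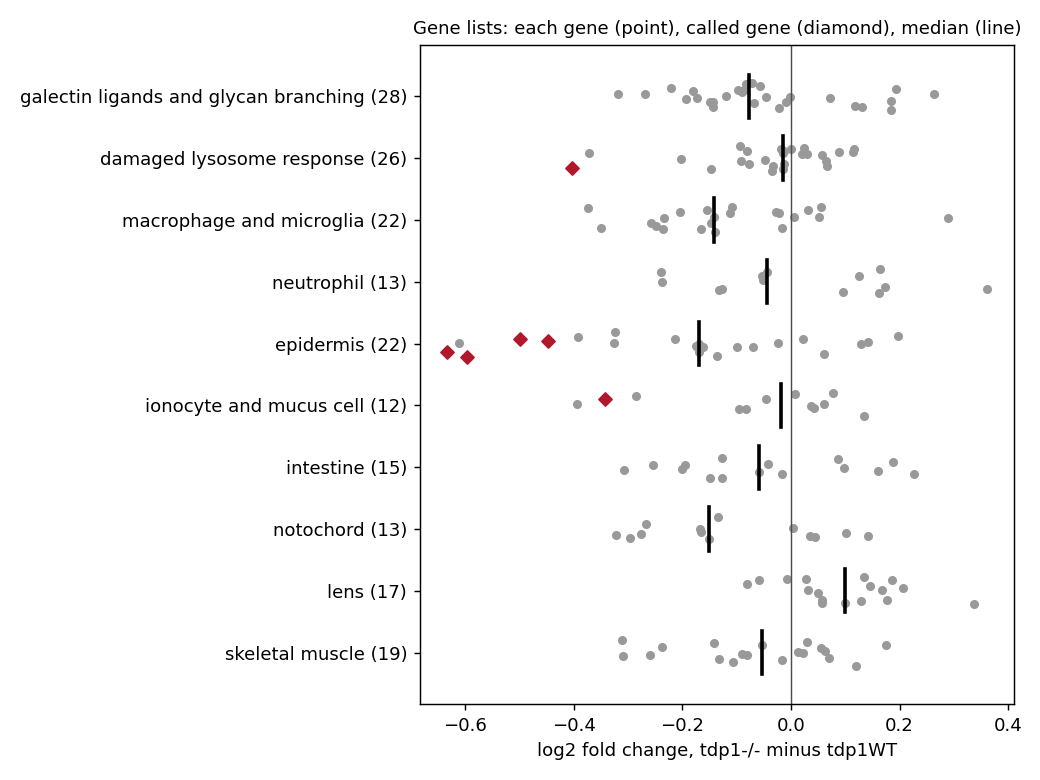
Log2 fold change of *tdp1-/-* minus *tdp1WT* for each measured gene of 10 lists, with called genes as red diamonds and a black line at the median of each list. The 4 called epidermis genes lie between -0.63 and -0.45, and the lens list has a median of 0.10.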

How the data were processed

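Total RNA was labelled with the WT plus kit of Affymetrix, and the authors ran RMA in the Transcriptome Analysis Console. RMA corrects background, normalizes by quantiles and summarizes probes, and each deposited value is the log2 level of 1 row (transcript cluster) on 1 array. The number of arrays limits their precision. The genome build behind the clusters is not given in the sources used here. Samples were grouped by genotype from the labels, which call the 3 arrays of each genotype biological replicates.

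Symbols came from the platform annotation, which gives 1 symbol to 20806 of 75212 rows. Of these, 20323 were matched to RefSeq (GRCz12tu), used for names and gene order. All 6 values of a row recur in another row for 14293 rows.

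With R 4.3.3 and limma 3.58.1 (lmFit, eBayes) *tdp1-/-* was compared with *tdp1WT* on all rows, with Benjamini-Hochberg adjustment. The fit was tested on simulated data that held no replicate effect, so that test says nothing on the pairing of the arrays. After subtracting each genotype mean, arrays of the same number correlated (r of 0.203, 0.216 and 0.290), so the numbers, which are those of the labels, were taken to pair the arrays. The main fit left this pairing out, because the study names no block, though it says that its samples came from biologically independent experiments. Intervals and calls come from that unpaired fit unless another is named. It called 401 rows with 1 symbol, against 850 with the replicate block. Alternatives were the replicate block, other normalizations, array weights, row filters, other rows of a gene, no fold threshold, each array left out and, added after the data were seen, a variance trend.

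Named are all galectin genes, *tdp1*, other genes with galectin-related symbols, and from each of 10 lists the called genes and up to 2 with the smallest p, as well as genes called with the block alone, chosen after their values were seen. The nearest measured genes outside the galectins on each side of *lgals3b* and *lgals9l1* were named by position, and *tyro3*, *arid4a* and *fhl5* as extremes of their stretch by value, all chosen after values were seen. The 3 genes most like *lgals3b* and *lgals9l1* over the arrays are named too, as are *apoeb* and *lgmn*, the brightest macrophage and microglia rows. The epidermis rows *krt4*, *cyt1l* and *anxa1a* and *cpa5* of the neutrophil list were named for their brightness, after values were seen. The members and lists were chosen with earlier results of these data known. Probes differ in brightness, so levels of different rows were not read as differences in expression between genes, and ranks among row means are given only to say which rows are dim or bright. Protein and promoter sequences were not used here.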

Additional observations from a re-analysis of the deposited data

How the results depend on the processing

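The number of called galectin genes was 2 under all 15 alternatives, and in those fitted by row the called genes were *lgals3b* and *lgals9l1* each time. These fits reuse the arrays on which both genes were picked, so the repeated calls are a description and not support. Without the fold threshold the calls over all rows stayed at 2688, so that setting could change no call. The log2 fold change of *lgals3b* ranged from 1.35 (without *tdp1WT* replicate 3) to 1.82 (without *tdp1WT* replicate 2), and that of *lgals9l1* from -0.90 to -0.68. Signs turned for *lgals1l1*, to 0.074 without *tdp1-/-* replicate 3 and 0.036 without *tdp1WT* replicate 3, for *lgals2b*, to -0.086 without *tdp1WT* replicate 3, and for the other row of *lgals3a*, at -0.13. Leaving out 1 array gave -0.34 to 0.074 for *lgals1l1*, -0.086 to 0.21 for *lgals2b*, -0.54 to -0.13 for *lgals2a* and -0.29 to -0.025 for *lgals9l3*. None of these was called, with or without the change.

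Of the 10 other galectin-related genes, 1 was called (*lgals9l5*). The count was 2 with the replicate block, 0 after a further quantile normalization and 0 after centring arrays on their medians. It was 0 among rows at or above the median level, which leaves out the dim *lgals9l*, *lgals4* and *lgals3bp.3* rows. Leaving out 1 array gave 0 to 2. Over all rows 2688 were called, against 4830 with the replicate block and 1340 in rows at or above the median level, where fewer rows were tested. A fit of the 20806 rows with 1 symbol alone called 676, where the fit of all rows called 401 of the same rows. The log2 fold change of a row is the same in both, and the fits differ only in the rows over which limma moderates the variances. Leaving out 1 array gave 1881 to 5004, the highest without *tdp1-/-* replicate 1, and the cause was not tested. The block changed the calls of *lgals9l5*, *grifin* and *lgals3bp.3* and of no galectin gene listed.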

Other observations

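The genes most like *lgals3b* over the 6 arrays, by Pearson's r and 1 row per gene, were *hdx* (r of 0.988), *sod3a*, an extracellular superoxide dismutase gene (r of 0.981), and *slc18b1* (r of 0.980). Their log2 fold changes of 0.23, 0.27 and 0.23 were well below the 1.53 of *lgals3b*, and none was called. The gene *slc18b1* also lies on chromosome 17. Those most like *lgals9l1* were *ankrd1b* (r of 0.990), an ankyrin repeat gene, with a log2 fold change of -0.49, the odorant receptor gene *or42c3* (r of 0.986), dim at 2.49 in *tdp1-/-* and 2.94 in *tdp1WT* embryos and on chromosome 15 as *lgals9l1* is, and *si:ch1073-291c23.2* (r of 0.985), at -0.15. Of these *ankrd1b* and *or42c3* were called lower. Among 19260 genes and 6 arrays some high correlations always occur, so these values describe the arrays only. All of them share the 6 arrays and the genotype difference by which the galectin genes were taken up.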
